A study of Homo sapiens with 4 samples.

Results

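Huh1 and Huh7 are human hepatocellular carcinoma cell lines, and the comparison described here sets the Huh7 library transfected with a negative control siRNA (NCsiRNA) against the Huh1 library transfected with the same siRNA. RNA was collected 48 h after transfection at 15 nM, and each condition was sequenced as 1 library, so that no test was run between the lines and no p-value is given. Of 18398 transcript rows in the files, 11896 reached at least 1 RPKM (a read density: reads divided by transcript length and by library size) in 1 or both of these libraries and were compared as genes. The difference of a gene is its log2(RPKM + 1) in Huh7 minus that in Huh1, and 2-fold means a difference of at least 1 on that scale, which understates the change of genes near 0. The only other libraries of the series, Huh1 and Huh7 48 h after 15 nM of an siRNA against CDCA8 (CDCA8siRNA), were used to see whether a difference between the lines came back.

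Hepatocytes secrete most plasma proteins, assemble lipoproteins, detoxify foreign compounds with cytochrome P450 enzymes and conjugating enzymes, and dispose of nitrogen through the urea cycle. These functions are driven by a set of transcription factors that includes HNF4A, the FOXA factors and CEBPA. Hepatocellular carcinoma cells keep a varying share of this programme and often reactivate genes of fetal liver or of liver progenitors, such as AFP, IGF2 and PROM1 (CD133).

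The smallest step between low values put the reads behind the Huh1 and Huh7 NCsiRNA libraries at 13384836 and 12197606, and those behind the CDCA8siRNA libraries at 13193713 and 12266642. A gene's sampling SD given here follows from these reads and covers counting error only, since neither line was sequenced again under the same siRNA. Its median over the 11896 genes was 0.0859 on the log2 scale. Huh1 held more of its reads in a few transcripts, because its 10 most read rows took 11.5% of the estimated reads against 5.86% in Huh7. The highest value in Huh1 was FTL, the ferritin light chain, and in Huh7 it was GAPDH.

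The lines differed widely. In Huh7, 2028 genes were at least 2-fold higher than in Huh1, which is 17.0% of those compared, and 1211 genes, 10.2%, were at least 2-fold lower. A further 8657 genes (72.8%) lay within 2-fold. All 2021 higher and 1202 lower genes with a known transcript length differed by more than 1.96 sampling SDs. A call at a difference of at least 1 nearly ensures this, since the median sampling SD was 0.0859. Counting error is thus smaller than these differences, while the spread between cultures was not measured. At 4-fold the counts were 624 higher and 422 lower, and at 16-fold they were 91 and 94. The median difference of all genes was 0.14, and levels in the libraries correlated across genes with Pearson's r = 0.793, which is a description over genes that share both libraries. Quantile normalization brought the median difference to -0.000411 and the calls to 1648 higher and 1509 lower, so that the higher genes made up 52.2% of the calls in place of 62.6%. The medians of gene groups below are therefore read against 0.14 and not against 0.

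**Figure D1:**
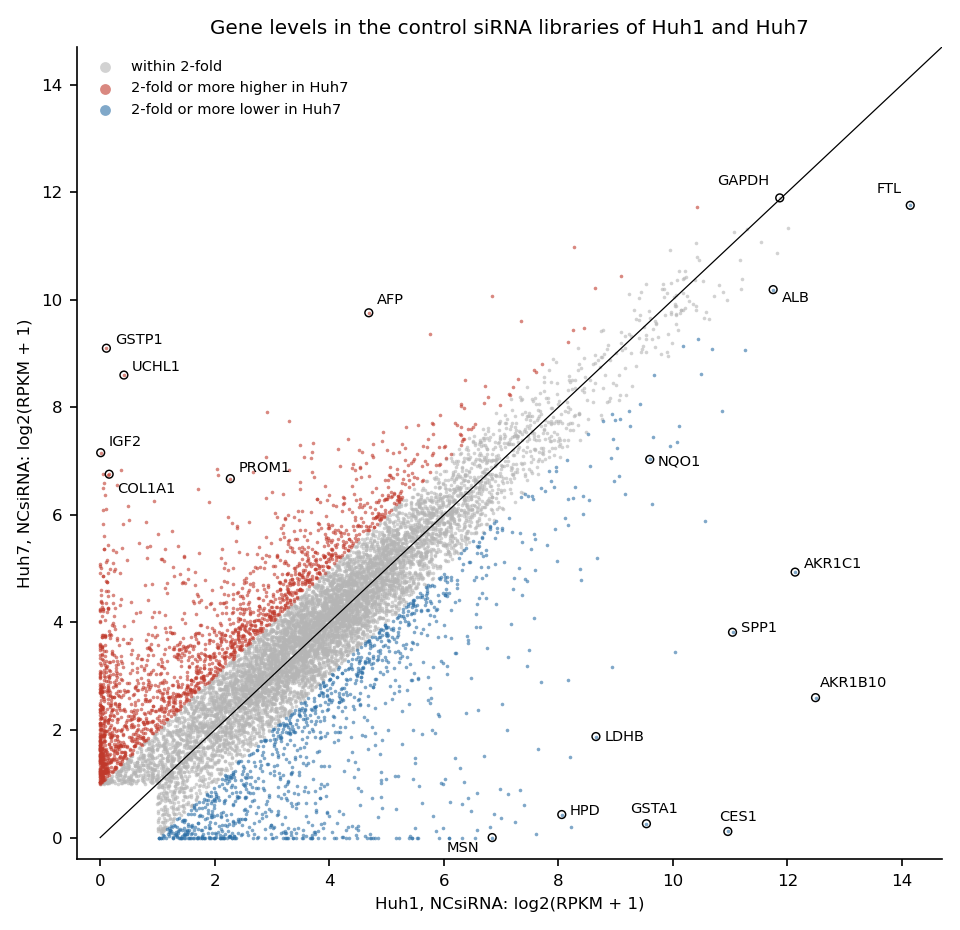
Level of each gene in the Huh1 (x axis) and Huh7 (y axis) NCsiRNA libraries as log2(RPKM + 1), with 1 point a gene, Y-linked genes not drawn and the diagonal marking equal levels. The 2028 genes at least 2-fold higher in Huh7 are red and the 1211 at least 2-fold lower are blue; GAPDH lies on the diagonal, while GSTP1 and CES1 lie along opposite axes.

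The liver origin of both lines was checked with defining markers, of which APOB, FGB and HNF4A are given first. APOB, the structural protein of very low density lipoprotein, stood at 217 RPKM in Huh1 and 130 RPKM in Huh7, and FGB, the fibrinogen beta chain, at 178 and 195 RPKM. HNF4A, the nuclear receptor central to hepatocyte identity, was at 86.1 RPKM in Huh1 and 55.4 RPKM in Huh7. Both lines thus carried these hepatocyte markers at clear levels, as they did the epithelial keratins KRT8 (1360 and 2133 RPKM) and KRT18 (986 and 1938 RPKM). The markers ALB and TTR are given below, and TTR was at a low level in Huh1. Markers of blood and vessel cells were at or near 0, with VWF and CDH5 listed at 0 in both libraries, PTPRC at 0 and 0.0769 RPKM, and CD3E at 0 and 0.0542 RPKM. Of 23 measured leukocyte and endothelial markers, 3 passed 1 RPKM, with CD68, a lysosomal protein of macrophages and other cells, at 23.3 RPKM in Huh1 and 3.71 in Huh7, and LYZ, lysozyme, at 0.855 and 11.1 RPKM. In bulk RNA, fewer cells of a type and less RNA per cell cannot be told apart.

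Plasma proteins were more often lower than higher in Huh7. ALB, albumin, was at 3447 RPKM in Huh1 and 1166 RPKM in Huh7, and at 2684 and 721 RPKM with CDCA8siRNA, so that both Huh1 libraries lay above both Huh7 libraries. Its difference was -1.56 with a sampling SD of 0.0092. Of 29 plasma protein genes that passed, 13 (44.8%) were at least 2-fold lower in Huh7, against 10.2% of all genes. A further 5 (17.2%) were higher, close to the 17.0% of all genes. The median difference was -0.55 against 0.14 over all genes. Furthest below Huh1 were HP (haptoglobin, 13.4 RPKM in Huh1 and 0.668 in Huh7), CP (ceruloplasmin, 164 and 21.9 RPKM) and RBP4 (the plasma carrier of retinol, 570 and 83.2 RPKM). On the other side stood the protease inhibitor A2M, at 1.40 RPKM in Huh1 and 51.1 in Huh7, the haem carrier HPX, at 3.54 and 33.4, and the thyroid hormone carrier TTR, at 5.10 and 29.3. Transferrin, TF, was close in the lines at 675 and 628 RPKM.

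AFP, the albumin-related protein made by fetal liver and by many hepatocellular carcinomas, showed the reverse of ALB. It was at 24.8 RPKM in Huh1 and 865 RPKM in Huh7, and at 27.5 and 715 RPKM with CDCA8siRNA. The ratio of the NCsiRNA levels was 34.8, and the difference of 5.07 had a sampling SD of 0.049. ALB and AFP are neighbours on chromosome 4, and the bases just before their start sites are shown because both hold the same HNF1 motif, in capitals, although the genes differed in opposite directions. The stretches are given 5′ to 3′ on the + strand of GRCh38.p14 from the RefSeq promoter table, they end at the base before the start site, and in AFP the capitals nearest the end are a TATA box.
ALB, chr4:73404137-73404286: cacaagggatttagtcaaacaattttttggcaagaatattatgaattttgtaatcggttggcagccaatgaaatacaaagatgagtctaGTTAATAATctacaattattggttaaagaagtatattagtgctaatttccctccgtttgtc
AFP, chr4:73436071-73436220: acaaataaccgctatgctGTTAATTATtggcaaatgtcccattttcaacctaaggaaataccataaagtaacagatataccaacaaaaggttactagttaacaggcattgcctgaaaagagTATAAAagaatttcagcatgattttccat

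The motif searched, GTTAATNAT on either strand, starts 61 bases before the ALB start site and 132 bases before that of AFP. Of 11896 genes compared, 9764 had at least 1 window in that table, which runs from 250 bases before to 50 bases after each start site and holds several windows for some genes. The motif occurred in 0.629% of the 14312 windows of genes that passed, in 0.676% of the 2514 windows of genes 2-fold higher in Huh7 and in 1.14% of the 1398 windows of genes 2-fold lower, which were 16 windows. CAAAGTCCA, an HNF4 site, also searched on both strands, was in 0.405%, 0.398% and 1.14% of the same windows. A TATA box, TATAAA on the gene's strand, was in 4.09%, 4.97% and 7.65%, and the CEBP site TTGCGCAA was in 0.224%, 0.239% and 0.0715%. These are matches of letters and not measured binding sites, and the smaller shares rest on few windows. SPP1, the secreted phosphoprotein osteopontin, held the HNF1 motif, and CYP2B6, a drug-metabolising cytochrome P450, held the HNF4 site on the opposite strand, and both genes were far lower in Huh7. They are printed in the same way, 250 bases each, with the match in capitals, and in SPP1 it begins 215 bases before the start site.
SPP1, chr4:87975464-87975713: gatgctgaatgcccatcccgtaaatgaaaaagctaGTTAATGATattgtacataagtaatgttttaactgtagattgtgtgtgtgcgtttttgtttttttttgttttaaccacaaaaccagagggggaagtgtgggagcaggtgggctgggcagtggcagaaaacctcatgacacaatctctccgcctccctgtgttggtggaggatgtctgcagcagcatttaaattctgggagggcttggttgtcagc
CYP2B6, chr19:40991032-40991281: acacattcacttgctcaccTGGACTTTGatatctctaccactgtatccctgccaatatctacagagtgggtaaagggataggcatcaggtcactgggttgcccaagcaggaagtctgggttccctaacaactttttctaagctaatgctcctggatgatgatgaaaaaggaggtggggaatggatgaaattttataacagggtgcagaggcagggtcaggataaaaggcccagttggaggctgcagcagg

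Among apolipoproteins and genes of lipoprotein assembly, 5 of 15 that passed (33.3%) were at least 2-fold lower in Huh7 and 2 (13.3%) higher. Over all genes the shares were 10.2% and 17.0%, and the median difference of the 15 was -0.60. APOA2, a protein of high density lipoprotein, was at 1072 RPKM in Huh1 and 163 in Huh7, and MTTP, which loads lipid onto APOB, was at 42.5 and 17.1. APOC2, the activator of lipoprotein lipase, went the other way with 12.1 RPKM in Huh1 and 161 in Huh7, and APOE with 84.5 and 193. Of 20 coagulation genes, 4 were higher, near the 17.0% of all genes, and 4 were lower, against 10.2%, and their median of 0.28 turned to -0.08 under quantile normalization. Antithrombin, SERPINC1, and factor V, F5, were among the lower and SERPIND1, heparin cofactor II, among the higher, at 26.2 RPKM in Huh1 and 135 in Huh7. Of 22 complement genes that passed, 8 (36.4%) were lower and 3 (13.6%) higher, against 10.2% and 17.0% of all genes. C3, the central component, was within 2-fold.

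Of 24 transcription factors of hepatocytes, all passed, 5 (20.8%) were at least 2-fold lower in Huh7 and 4 (16.7%) higher, where 10.2% and 17.0% of all genes were, and the median was -0.15. CEBPA (94.4 and 68.9 RPKM), HHEX (51.2 and 78.3) and FOXA1 (29.4 and 24.6) lay within 2-fold. The bile acid receptor NR1H4 (FXR) was at 41.9 RPKM in Huh1 and 6.65 in Huh7, and the xenobiotic receptor NR1I2 (PXR) was at 3.43 RPKM in Huh1 and listed at 0 in both Huh7 libraries. PROX1, required for hepatoblast migration, was at 13.2 RPKM in Huh1 and 55.9 in Huh7.

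Drug-metabolising genes separated the lines more than any other liver group examined, by their share of 2-fold calls. Of 22 P450 genes and their reductase that passed, 19 (86.4%) were at least 2-fold lower in Huh7 and none was higher. Over all genes 10.2% were lower and 17.0% higher. The median difference was -1.71, and 15 of 37 measured did not pass. Members near 0 in Huh7 passed only through Huh1, which largely fixed their call. CYP4F11, a fatty acid hydroxylase, was at 62.6 RPKM in Huh1 and 0.134 in Huh7, and CYP2B6, which metabolises many drugs, at 54.9 and 0.315. CYP24A1, which inactivates vitamin D, was at 45.5 RPKM in Huh1 and listed at 0 in Huh7. The shared electron donor POR was at 99.3 and 31.7 RPKM. The P450 genes within 2-fold were CYP51A1, a sterol synthesis enzyme (68.8 and 62.1 RPKM), CYP2R1 and CYP4V2. The range of the 22 ran from -5.81 to 0.15, and 17 of the 19 lower genes were 2-fold lower again in the CDCA8siRNA pair. Members of the CYP4F and CYP2C subfamilies resemble each other in sequence, and how reads were shared among them is uncertain.

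Conjugating enzymes divided by isoform. Of 29 that passed, 15 (51.7%) were at least 2-fold lower in Huh7 and 5 (17.2%) higher, against 10.2% and 17.0% of all genes. The median was -1.07. GSTA1, the main alpha class glutathione transferase of liver, was at 743 RPKM in Huh1 and 0.195 RPKM in Huh7, and at 506 and 0.518 RPKM with CDCA8siRNA. GSTP1, the pi class enzyme that normal hepatocytes lack, had the largest positive difference of all genes, at 0.0780 RPKM in Huh1 and 547 RPKM in Huh7, and at 0.0791 and 566 RPKM with CDCA8siRNA. The lines thus held opposite forms of the same enzyme family, with differences of -9.28 (sampling SD 0.15) and 8.99 (0.11). GSTM1, of the mu class, was also higher in Huh7 (0.838 and 42.1 RPKM), whereas GSTO1 was at 164 and 168 RPKM. The glucuronosyltransferases UGT2B4 (492 RPKM in Huh1, 7.99 in Huh7) and UGT1A6 (198 and 2.11) followed GSTA1. Reads of GSTA1 and GSTA2, of GSTM1 and GSTM2 and of the UGT1A transcripts, which share exons, could be exchanged within each set.

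Transport and amino acid disposal followed the same direction. Of 15 transporters that passed, 6 (40%) were lower in Huh7 and 1 (6.67%) higher, against 10.2% and 17.0% of all genes (median -0.69). Among the lower were the canalicular export pump ABCC2 (408 RPKM in Huh1, 35.8 in Huh7) and its basolateral relative ABCC3 (48 and 2.81). The glucose transporter SLC2A2 (11 and 0.914) was lower too. For urea cycle and amino acid breakdown, 13 of 29 (44.8%) were lower and 3 (10.3%) higher, with a median of -0.86. CPS1, which commits ammonia to the urea cycle, was at 95 RPKM in Huh1 and 0.0996 RPKM in Huh7, and at 49.2 and 0.269 RPKM with CDCA8siRNA. The next enzymes ASS1 (28.7 and 1.95 RPKM) and ASL (57.1 and 17.9) were lower in Huh7 as well, but ARG1, the arginase that releases urea, was at 1.39 RPKM in Huh1 and 6.18 in Huh7. HPD of tyrosine breakdown was at 266 and 0.346 RPKM, while HGD, later in the same pathway, stayed within 2-fold at 86.5 and 54.2.

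After GSTP1, the largest positive differences were those of UCHL1, a neuronal deubiquitinase (0.332 RPKM in Huh1, 387 in Huh7), IGF2, a fetal growth factor (0.00615 and 142), the neutrophil chemokine CXCL5 (0.0382 and 107), the gap junction protein GJA1 (0.0955 and 106) and COL1A1, a chain of type I collagen (0.115 and 107). The Huh1 values of these genes rest on very few reads, so the differences of 8.19, 7.15, 6.70, 6.62 and 6.60 describe levels that began near 0. EFEMP1, FBLN1, FSTL1 and COCH, all secreted or matrix proteins, the embryonic tight junction protein CLDN6, the lactate exporter SLC16A3, VGLL3, HDHD1 and C8orf4 completed the 15 genes furthest above Huh1. In each of the 15, both Huh7 libraries lay above both Huh1 libraries.

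Among genes lower in Huh7, CES1, a carboxylesterase that hydrolyses drugs and esters, showed the largest difference at -10.85. It was at 1991 RPKM in Huh1 and 0.0817 RPKM in Huh7, and at 1985 and 0.163 RPKM with CDCA8siRNA. The aldo-keto reductase AKR1B10 was at 5758 RPKM in Huh1, the level of an abundant structural gene, and at 5.07 RPKM in Huh7. Its close relative AKR1B15 (299 and 0.151 RPKM) and the steroid-reducing AKR1C1 (4497 and 29.6 RPKM) were also in this set, where similar sequences leave the split of reads uncertain. SPP1 was at 2107 and 13.1 RPKM, and the membrane linker MSN, moesin, was at 114 RPKM in Huh1 and listed at 0 in both Huh7 libraries. LDHB, the heart type lactate dehydrogenase subunit, was at 403 and 2.68 RPKM. CPLX2, VNN1, LGALS4, TRIM16L and the paralogous cancer testis genes MAGEA3 and MAGEA6 made up the remainder with GSTA1 and HPD.

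**Figure D2:**
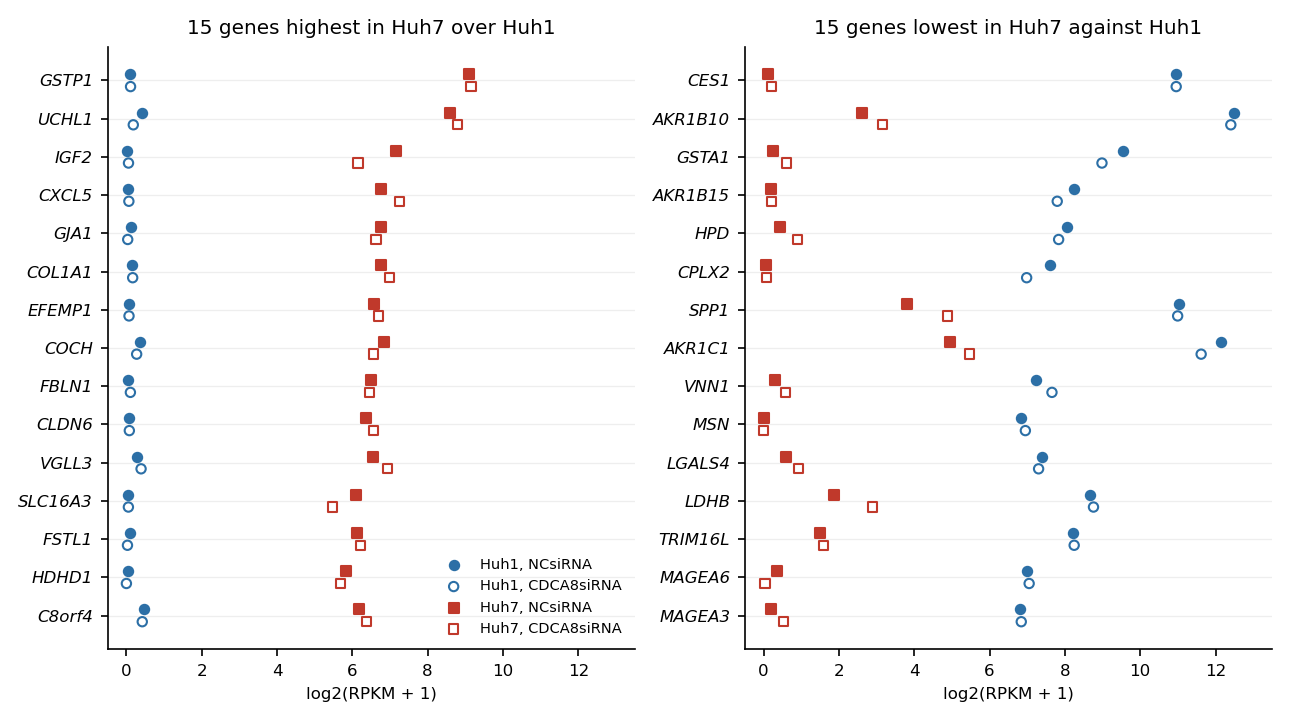
Level as log2(RPKM + 1) of the 15 genes with the largest positive (left) and negative (right) difference in the NCsiRNA pair, Huh1 in blue circles and Huh7 in red squares, filled for NCsiRNA and open for CDCA8siRNA. In every gene shown the filled and open symbols of a line lie closer to each other than to those of the other line, and on the right SPP1 (13.1 RPKM) and AKR1C1 (29.6 RPKM) keep a clear level in Huh7.

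Fetal and progenitor genes were more often higher in Huh7. Of 20 oncofetal and carcinoma markers that passed, 11 (55%) were at least 2-fold higher and 4 (20%) lower. Both shares exceeded the 17.0% and 10.2% of all genes, and the median was 1.31. Beside AFP and IGF2, the RNA-binding repressors of let-7, LIN28A (0.169 and 19.5 RPKM) and LIN28B (15.8 and 50.1), and the chromatin protein HMGA2 (1.57 and 41.7) were higher. HMGA1 (288 and 77.9 RPKM) and the trypsin inhibitor SPINK1 (509 and 215) were lower. GPC3, the glypican used to diagnose hepatocellular carcinoma, was at 131 and 180 RPKM, and the IGF2 mRNA-binding proteins IGF2BP1 and IGF2BP3 also lay within 2-fold. The direction of this group therefore differed from AKR1B10, itself a marker of these tumours and the member with the lowest difference, -9.89.

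Of 19 progenitor, biliary and stem cell markers that passed, 10 (52.6%) were at least 2-fold higher and 3 (15.8%) lower in Huh7 (median 1.06). Over all genes the shares were 17.0% and 10.2%. PROM1, the surface protein CD133 by which tumour-initiating liver cells have been sorted, was at 3.83 RPKM in Huh1 and 101 RPKM in Huh7, and at 4.31 and 83.7 RPKM with CDCA8siRNA. Its difference was 4.40 with a sampling SD of 0.083. The Wnt target receptor LGR5 (0.0649 and 9.43 RPKM), SOX9 (3.72 and 30.4) and the biliary keratin KRT19 (12 and 110) were higher too. KRT7, the other keratin of bile ducts, was the reverse at 84.4 RPKM in Huh1 and 0.660 RPKM in Huh7, as was SPP1. EPCAM, at 13.6 and 22.7 RPKM, and CD24, at 215 and 314 RPKM, stayed within 2-fold.

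Matrix genes were another group with higher values in Huh7. Of 38 mesenchymal and matrix genes, 19 (50%) were at least 2-fold higher and 8 (21.1%) lower, against 17.0% and 10.2% of all genes. Their median was 0.96. VIM, the intermediate filament of mesenchymal cells, was at 114 RPKM in Huh1 and 1067 in Huh7, and at 151 and 1245 with CDCA8siRNA. COL1A2 was at 0.0138 and 31.4 RPKM, the matrix protein SPARC at 0.0476 and 47.5, and the repressor of epithelial genes ZEB2 at 0.0980 and 5.6. COL4A2, a chain of basement membrane collagen, was lower at 11.9 RPKM in Huh1 and 0.172 in Huh7, but COL4A5, another such chain, was at 0.00988 and 20 RPKM. Fibronectin, FN1, was also lower in Huh7, at 2461 and 532 RPKM. CDH1, the epithelial cadherin, was at 9.15 and 15.8 RPKM and CDH2, the mesenchymal cadherin, at 17.5 and 54.5 RPKM, so that both were expressed in both lines. CDH2 was at least 2-fold higher in Huh7, while CDH1 stayed within 2-fold.

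Epithelial genes gave 6 higher and 6 lower of 23, 26.1% each way against 17.0% and 10.2% of all genes, with a median of 0.48. Claudins differed in both directions, since CLDN4 was at 42.7 RPKM in Huh1 and listed at 0 in Huh7 with NCsiRNA, and CLDN6 was at 0.0545 RPKM in Huh1 and 81.5 in Huh7. All 6 stellate cell and fibroblast markers that passed, of 18 measured, were higher in Huh7, but 3 of the defining ones, DES (0.0332 and 0.128 RPKM), RGS5 (0.0378 and 0.401) and DCN (0 and 0.136), were at or near 0 in both lines. COL1A1 and COL1A2 passed only through Huh7, where they are high, which largely fixed their call. LUM, lumican, was at 12 RPKM in Huh1 and 143 in Huh7. The summed level of the 18 markers was 126 RPKM in Huh1 and 1368 RPKM in Huh7, most of it VIM, and the part of such cells in the matrix gene differences was not tested.

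Inflammatory and immune genes differed by family. Of 30 chemokine, cytokine and NF-kB genes that passed, 17 (56.7%) were at least 2-fold higher in Huh7 and 3 (10%) lower. Over all genes the shares were 17.0% and 10.2%, and the median of the 30 was 1.43. CXCL5, CXCL1 (0.744 and 57.6 RPKM), CXCL6 (0.0901 and 17.4) and IL8 (7.01 and 84.9), which all attract neutrophils and lie in the same cluster of chromosome 4, were higher. CCL15 (76.6 and 1.44 RPKM) and the interleukin 6 receptor IL6R (22.1 and 0.530) were lower. Of 30 interferon-stimulated genes, 5 (16.7%) were higher, close to the 17.0% of all genes, and 8 (26.7%) were lower, against 10.2%, with the RNA sensor IFIH1 at 9.78 and 0.935 RPKM, the antiviral OAS1 at 14.6 and 0.394, and MX2 at 0.0505 and 3.02.

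For antigen presentation, 6 of 14 genes (42.9%) were at least 2-fold lower in Huh7 and none was higher (median -0.76). Over all genes 10.2% were lower and 17.0% higher. HLA-C was at 93.7 RPKM in Huh1 and 14.1 RPKM in Huh7, and HLA-E at 19.5 and 5.38. HLA-B was at 3.65 and 6.03 RPKM and the shared light chain B2M at 515 and 514 RPKM, within 2-fold. HLA genes are polymorphic and alike in sequence, and how well the reads of each line's alleles were assigned cannot be read from these files.

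Of 21 iron and metallothionein genes, 11 (52.4%) were higher and 7 (33.3%) lower, against 17.0% and 10.2% of all genes. Their median of 1.02 was 0.27 in the CDCA8siRNA pair and 0.52 over genes from 5 RPKM. FTL was at 18122 RPKM in Huh1 and 3457 in Huh7, HMOX1, the inducible haem oxygenase, at 206 and 6.39, and the iron exporter SLC40A1 at 342 and 81.0. All 8 metallothioneins that passed, small proteins that bind zinc and copper, were at least 2-fold higher in Huh7. MT2A was at 5.35 RPKM in Huh1 and 111 in Huh7, MT1E at 5.02 and 57.2, and MT1F and MT1G were listed at 0 in Huh1 with 33.2 and 10.6 RPKM in Huh7. These genes are short and similar, and reads could be shared among them, so the 8 are not separate observations. In Huh1, 4 of them were under 0.1 RPKM and passed only through Huh7, which largely fixed their call. With CDCA8siRNA, 7 of the 8 were 2-fold higher again. The transferrin receptor TFRC was at 185 and 188 RPKM.

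Cancer testis antigens are genes of the germ line that tumours often express. Of 28 measured, 14 passed, and 9 of these (64.3%) were at least 2-fold lower in Huh7 and 5 (35.7%) higher. Over all genes the shares were 10.2% and 17.0%. A member near 0 in 1 line passed only through the line where it was high. For such members the filter largely fixed a 2-fold call in advance. MAGEA12, CTAG2 and MAGEA1 were at 59.2, 41.0 and 11.9 RPKM in Huh1 and listed at 0 in Huh7, while MAGEB2 was listed at 0 in Huh1 with 29.1 RPKM in Huh7, and the bromodomain protein BRDT was at 0.0238 and 18.4 RPKM. HOX genes, which give positional identity, were all under 10 RPKM in both lines. Of 18 that passed, 11 (61.1%) were higher in Huh7 and 4 (22.2%) lower, against 17.0% and 10.2% of all genes. The HOXC cluster accounted for 6 of those higher, with HOXC10 at 0.310 RPKM in Huh1 and 8.45 in Huh7. HOXA genes went both ways. HOXA7, HOXA9, HOXA10 and HOXA11 formed a run of neighbours higher in Huh7, with differences from 1.52 to 2.23. HOXA13 (3.34 and 0.311 RPKM) and HOXA5 (5.90 and 1.44) were lower. At these levels the pseudocount matters, and 0.1 RPKM in place of 1 raised the HOX median from 1.52 to 2.5.

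Growth and signalling genes were more often higher in Huh7. Of 32 growth factors and receptors that passed, 15 (46.9%) were at least 2-fold higher and 6 (18.8%) lower (median 0.91). Over all genes the shares were 17.0% and 10.2%. PDGFRA was at 0.00256 RPKM in Huh1 and 15.3 in Huh7, and its ligand PDGFB at 0.489 and 15.4. FGF19, the hormone of bile acid control, was at 0.210 and 8.21. MET, the receptor of hepatocyte growth factor, was lower at 40.5 and 14.5 RPKM, as was FGFR1, while FGFR4, the receptor of FGF19 in liver, was at 44.3 and 55.9. In the Wnt pathway 10 of 28 (35.7%) were higher, including the secreted inhibitor DKK1 (0.414 and 59.3 RPKM), and 2 (7.14%) were lower. WNT5A, a ligand of the beta-catenin independent branch, was at 41.3 RPKM in Huh1 and 0.0163 in Huh7. CTNNB1, beta-catenin itself, was at 98.6 and 166 RPKM.

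Of 42 cell cycle genes, 9 (21.4%) were higher, against 17.0% of all genes, and 1 was lower, with a median of 0.43. In the CDCA8siRNA pair 6 of the 9 were 2-fold higher again and the lower gene was not 2-fold lower. CDCA8, the chromosomal passenger protein that the second siRNA targets, was at 24.1 RPKM in Huh1 and 51.5 RPKM in Huh7 with NCsiRNA, a difference of 1.06 with a sampling SD of 0.061. With CDCA8siRNA it was at 5.86 and 7.36 RPKM, so both values were below those under NCsiRNA and the difference there was 0.29. Its partners AURKB (50.6 and 68.5 RPKM), BIRC5 (26.6 and 39.3) and INCENP (15.9 and 19.8) lay within 2-fold. CDKN1B, the inhibitor p27, was higher in Huh7 at 11.6 and 49.5 RPKM, and CDKN1A, the inhibitor p21, was the lower gene at 18.6 and 3.66, a difference of -2.07 that came to -0.91 in the CDCA8siRNA pair. Of 24 genes that the study followed, some of them drawn from these samples, which makes their direction no independent evidence, all passed, and 6 were at least 2-fold higher and none lower, namely PROM1, the matricellular CYR61, CCNE1, SLBP, CDCA8 and CCNB1. The cell cycle median was 0.16 in the CDCA8siRNA pair and that of these 24 genes 0.27, against 0.43 and 0.53, with PCNA, the sliding clamp of replication, at 109 and 194 RPKM under NCsiRNA and at 72.8 and 71.9 under CDCA8siRNA.

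In sugar metabolism, 8 of 29 (27.6%) were higher and 5 (17.2%) lower, against 17.0% and 10.2% of all genes, with a median of 0.42. LDHA, the muscle type lactate dehydrogenase subunit, was at 547 and 1396 RPKM, in the opposite direction to LDHB. The platelet phosphofructokinase PFKP was at 68.3 and 0.586 RPKM, while the hexokinase HK2 was at 2.16 and 29.6 and enolase 2, ENO2, at 0.910 and 17.4. GAPDH stood at 3733 and 3805 RPKM. Sterol and fatty acid synthesis genes were the closest group apart from ribosomal proteins, with 28 of 33 within 2-fold. HMGCS1, an early enzyme of cholesterol synthesis, was higher in Huh7 (77.8 and 267 RPKM) and ME1, which supplies NADPH, was lower (101 and 22.4). Of 72 cytosolic ribosomal proteins 70 lay within 2-fold, with a median of -0.19 that became 0.04 under quantile normalization.

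**Figure D3:**
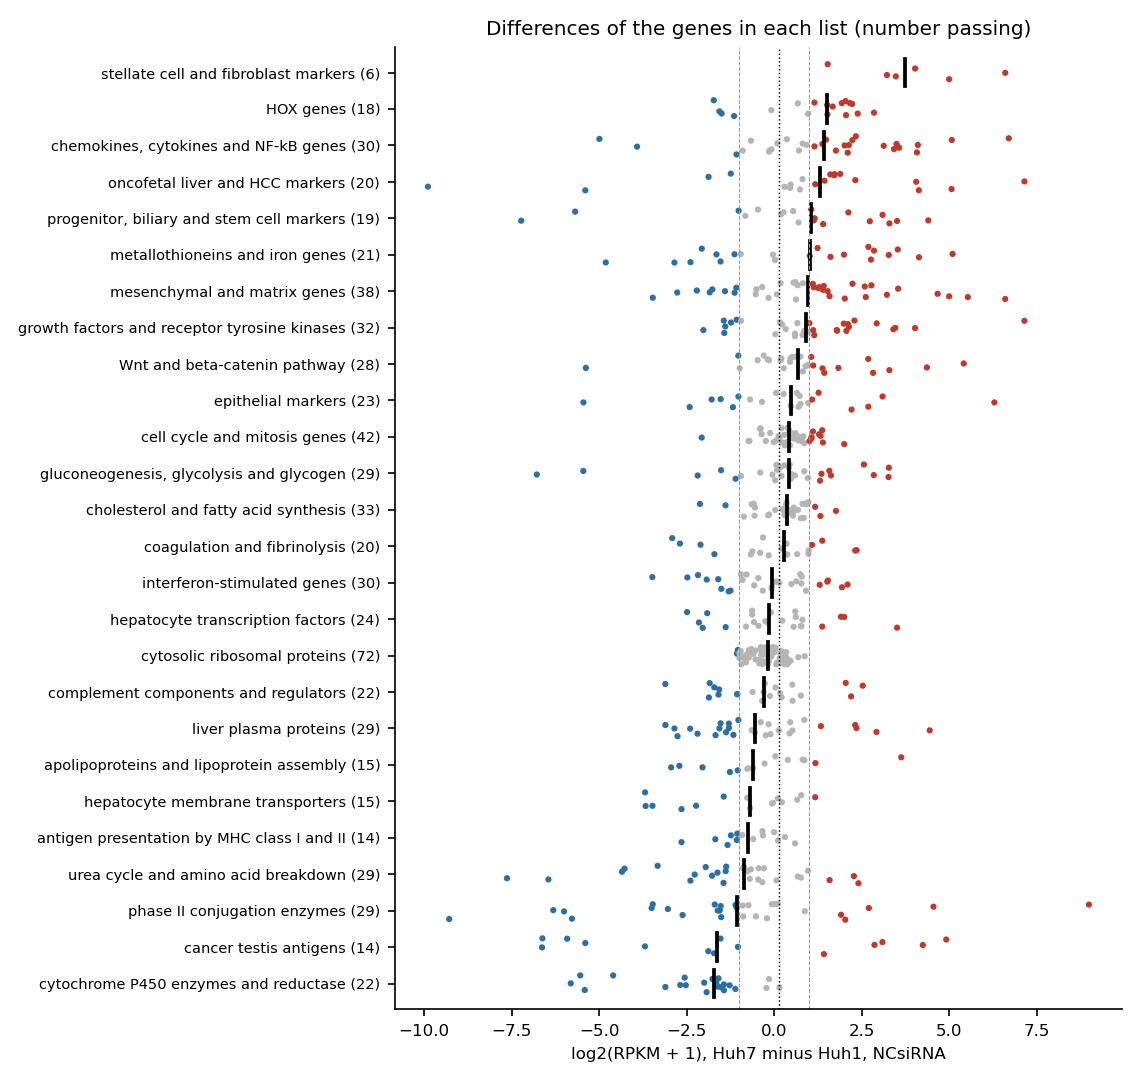
Difference of each gene that passed in the NCsiRNA pair (x axis, log2 scale, Huh7 minus Huh1) for 26 gene lists (y axis, number of genes in brackets), red at 2-fold or more higher, blue at 2-fold or more lower, grey between. Black bars are list medians, from -1.71 for cytochrome P450 genes to 3.75 for the 6 stellate and fibroblast markers that passed; the dotted line is the median of all genes, 0.14, and the dashed lines mark 2-fold.

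Some genes were at clear levels in 1 line and near 0 in the other. With at least 10 RPKM in 1 library and under 0.1 RPKM in the other, 68 genes were high in Huh7 and 51 in Huh1, of which 12 and 32 were listed at exactly 0 in the low line. In the CDCA8siRNA pair, all 68 and all 51 had at least 5 RPKM in the high line and under 1 RPKM in the low line, and 50 and 33 again met the original limits. Those highest in Huh7 were GSTP1, IGF2, CXCL5, GJA1, EFEMP1, FBLN1, CLDN6 and FSTL1. In Huh1 they were CES1, the synaptic protein CPLX2, MSN, CPS1, the proteoglycan core SRGN (92.0 RPKM), the factor MSC (78.6), the orphan nuclear receptor NR0B1 (67.4) and the lipid phosphatase PPAP2C (66.8), the last 4 listed at 0 in Huh7 with NCsiRNA.

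Differences were also arranged by chromosome. The 283 genes of chromosome 22 had a median difference of 1.01, and 142 of them (50.2%) were at least 2-fold higher in Huh7, where the share over all genes was 17.0%. Medians of the other autosomes lay between -0.06 for chromosome 10 and 0.53 for chromosome 13, and the median of chromosome X was -0.04 with 98 genes higher and 91 lower of 398. In the CDCA8siRNA pair the median of chromosome 22 was 1.00. Without its genes, 1886 genes were 2-fold higher and 1193 lower.

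Along chromosome 22 the differences were largest near its start. The first 25 genes that passed, from IL17RA to GP1BB, had a median of 1.96 with 23 of them 2-fold higher, the next 25, from TBX1 to SDF2L1, a median of 2.26 with 22 higher, and blocks 4 to 7 of 25 genes had medians between 0.61 and 0.64. An unbroken run of 22 neighbouring genes from DGCR6 to RANBP1 was 2-fold higher in Huh7, at 18906028 to 20127357 of chromosome 22 in GRCh38 (GENCODE release 29), with differences from 1.41 to 4.78. It included the histone chaperone HIRA (18.2 and 73.9 RPKM), the microRNA processing protein DGCR8 (10.7 and 40.2), the replication factor CDC45 (18.0 and 72.9) and SEPT5 (0.0989 and 29.2). A second run of 14 genes followed at 20241415 to 21624034, from RTN4R to UBE2L3, with differences from 1.75 to 3.08, among them the adaptor CRKL (22.8 and 143 RPKM) and SERPIND1. Every gene of both runs was 2-fold higher again in the CDCA8siRNA pair.

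Other long runs lay on chromosomes X, 4 and 14. On the short arm of X, 14 genes from SCML2 to SMS were higher in Huh7 (18239314 to 21994835, differences 1.32 to 4.16), including the translation factor EIF1AX (29.8 and 185 RPKM) and spermine synthase, SMS (54.6 and 209). On chromosome 4, 13 genes from FBXL5 to PACRGL (15604539 to 20752907) were higher, and PROM1 lay within this run with the largest difference, 4.40, where its neighbours TAPT1 and CD38 differed by 1.38 and 1.55. Likewise COCH, at 6.47, stood within a run of 12 genes on chromosome 14 from NOVA1 to ARHGAP5 (26443093 to 32159728) whose other members differed by 1.26 to 2.69. A run of 12 genes in the opposite direction, from ITM2A to DIAPH2 on X (79360384 to 97604997), was lower in Huh7 with differences from -1.43 to -4.73. In Huh7, 9 of its genes were under 0.1 RPKM, such as ITM2A (12.9 RPKM in Huh1, listed at 0 in Huh7) and SH3BGRL (23.7 and 0.0199). These 9 passed only through Huh1, which largely fixed their call. Runs hold only genes that passed, so genes under 1 RPKM in both NCsiRNA libraries do not break them. In all, 74 runs of at least 4 genes were counted, 50 higher and 24 lower. DNA was not measured, and whether the number of gene copies differed between the lines was not tested.

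**Figure D4:**
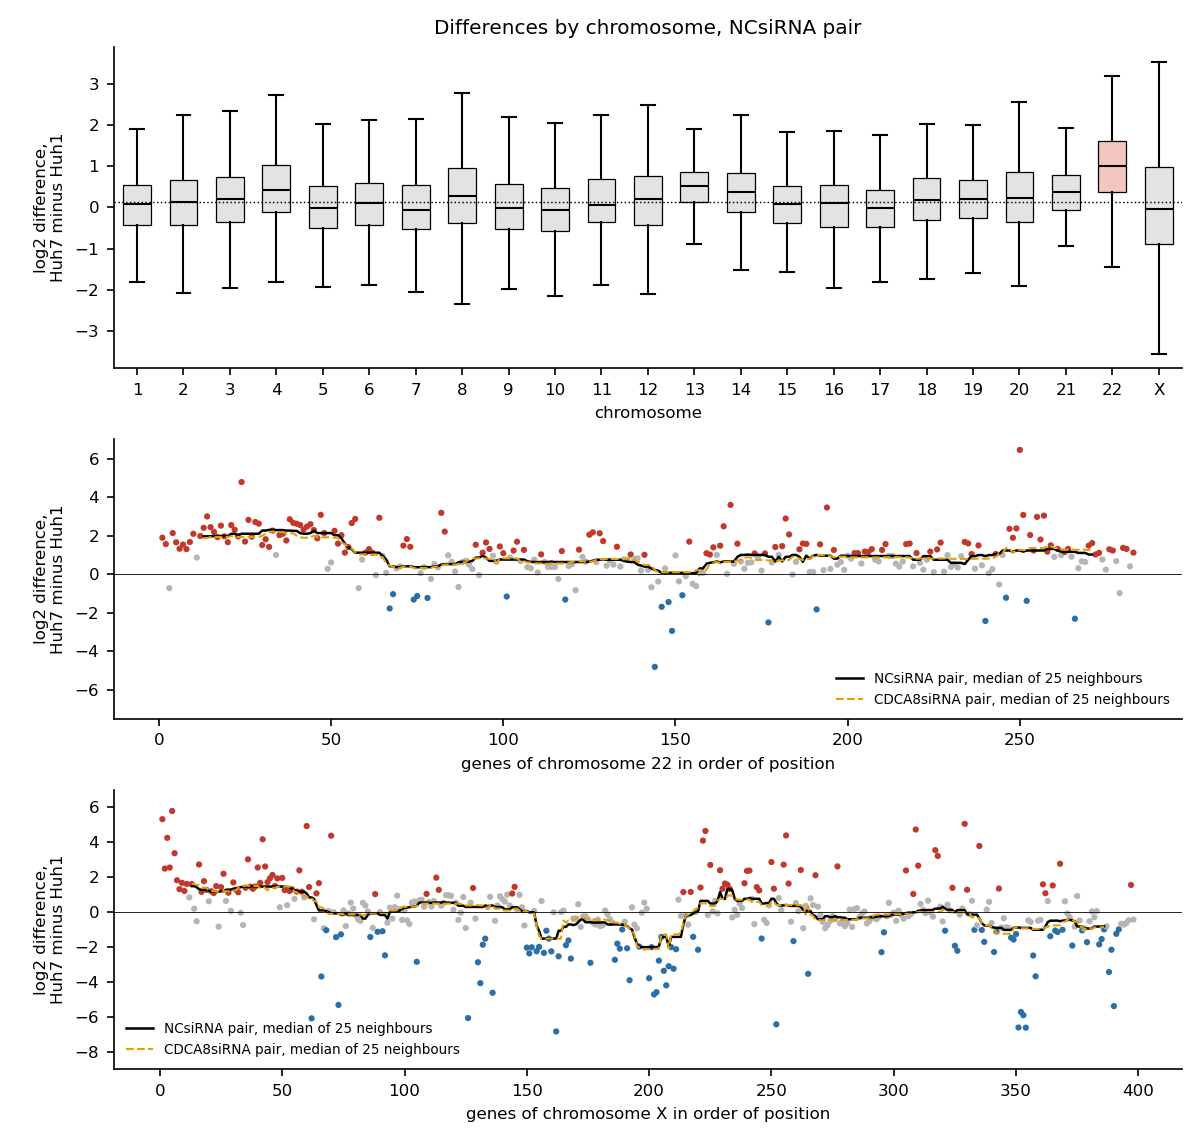
Top, difference in the NCsiRNA pair (y axis, log2 scale, Huh7 minus Huh1) of the genes of each chromosome, with boxes for quartiles, lines for medians, whiskers to 1.5 interquartile ranges and the dotted line at the median of all genes, 0.14. Middle and bottom, genes of chromosomes 22 and X in order of position, red or blue from 2-fold, with running medians of 25 neighbours for the NCsiRNA (black) and CDCA8siRNA (orange) pairs; the start of chromosome 22 lies near 2, and the running medians of the pairs follow each other.

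The differences between the lines came back with the other siRNA. Of 2028 genes higher in Huh7 with NCsiRNA, 1749 (86.2%) were 2-fold higher with CDCA8siRNA as well, 278 were higher by less and 1 was on the other side. Of 1211 lower genes, 1035 (85.5%) were 2-fold lower again, 171 were lower by less and 5 were on the other side. No gene was 2-fold in opposite directions, and of 1046 genes past 4-fold, 1042 were at least 2-fold on the same side. In that pair 17.4% and 10.1% of 12005 genes were higher and lower. Across the 11896 genes the differences in the pairs correlated with Pearson's r = 0.971 and Spearman's rho = 0.952. The pairs share no library but hold the same cell lines, and the second pair received another siRNA, so this repeat is not a replicate of the same condition. The correlations are descriptions over genes.

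**Figure D5:**
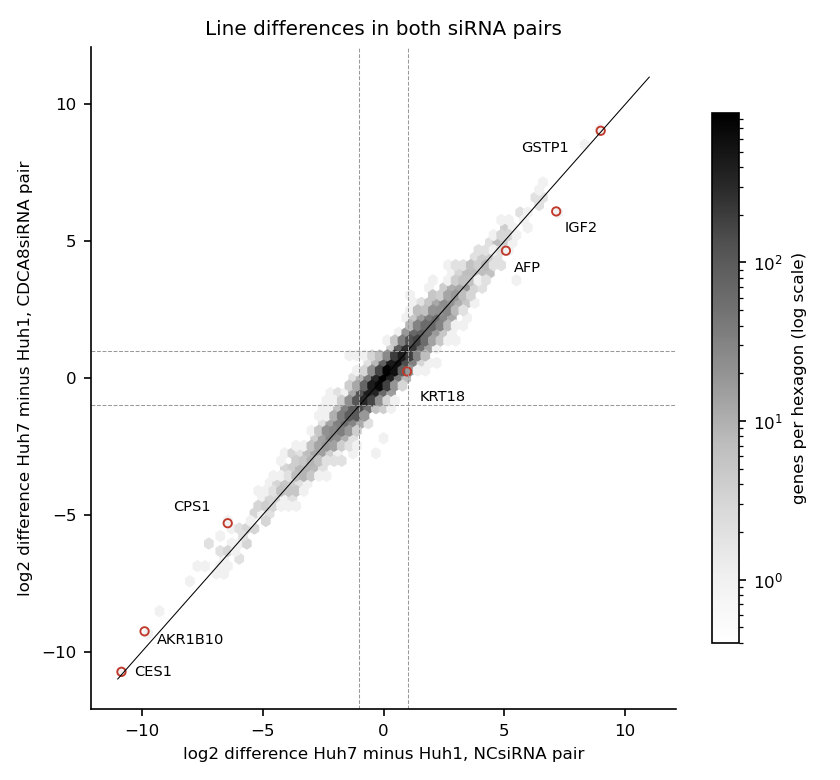
Difference Huh7 minus Huh1 (log2 scale) of the genes compared, Y-linked genes not drawn, in the NCsiRNA pair (x axis) and in the CDCA8siRNA pair (y axis), shaded by the number of genes per hexagon, with dashed lines at 2-fold. Genes lie along the diagonal from CES1 at -10.85 and -10.74 to GSTP1 at 8.99 and 9.04; KRT18, at 0.97 and 0.24, is an example of a smaller difference in the second pair.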

How the data were processed

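Huh1 and Huh7 cells received NCsiRNA or CDCA8siRNA at 15 nM for 48 h and gave 1 RNA-seq library each, grouped by their labels. Per the labels and the submitters' processing notes, CASAVA 1.8.2, TopHat2 2.0.9 and the build hg19 were used. The deposited RPKM values, normalized by the authors per kilobase of transcript and per size of the library, hold 1 transcript row for most genes, and 16 symbols have more than 1. The counting tool, its use of strand and its sharing of reads among similar genes are not given in the sources used here. Some values correspond to fractions of reads, so paralogs and overlapping genes are uncertain.

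Genes with at least 1 RPKM in either NCsiRNA library were compared by the difference of log2(RPKM + 1) with Python 3.11.15, numpy 2.4.6, pandas 2.3.3, scipy 1.17.1 and matplotlib 3.10.9. With 1 library a side no test was run, and called means past 2-fold. The steps were tested on simulated data. Reads were estimated from the smallest step of low values, and sampling SDs and the intervals of single genes cover counting error only. The 95% interval of a list median follows the spread among its member genes, which are not replicates. Gene positions come from GENCODE 29, with 17768 rows matched by RefSeq identifier and 497 by symbol. Promoters come from RefSeq, matched in the same order, and no coordinate was moved between builds.

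Named genes are the 15 with the largest difference in each direction, up to 5 members of each list past 2-fold a side and 3 others of highest RPKM, the study's genes, the 8 highest of those near 0 in the other line, and members of the 5 longest runs. Markers and some further members were named after their values were seen. The members and gene lists were chosen with earlier results of these data known. XIST, TSIX and Y-linked genes were not named. PECAM1, TXNRD1 and GPX2 were not analysed here. Alternatives were a pseudocount of 0.1, a minimum of 5 RPKM, no minimum, quantile, median ratio and upper quartile scaling, a 4-fold limit and the CDCA8siRNA pair. Some genes are not reported here.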

Additional observations from a re-analysis of the deposited data

Results flagged for a closer look

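Of 3239 genes past 2-fold between the lines with NCsiRNA, 6 lay on the other side with CDCA8siRNA. The change between the pairs was not tested, since each value rests on 1 library. Of the 6, 4 encode histones. HIST1H3H differed by -1.38 with NCsiRNA and by 0.85 with CDCA8siRNA, and HIST1H2BD by -1.02 and 0.81. HIST1H2BJ differed by -1.31 and then 0.0589, and HIST2H2BE by -1.13 and then 0.22. GABRA2, a GABA receptor subunit, was at 8.99 RPKM in Huh1 and 3.35 in Huh7 with NCsiRNA but at 7.18 and 7.50 with CDCA8siRNA, a difference of 0.0563 after -1.20. MBNL3, a splicing regulator, was at 17.7 and 37.1 RPKM and then at 13.2 and 12.5, a difference of -0.0703 after 1.03. Histone genes share sequence, and their values are uncertain for that reason.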

How the results depend on the processing

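With 1 library a side, no replicate could be left out. The labels carry no replicate numbers, and a fit of line and siRNA over all 4 libraries was not run. The counts past 2-fold ranged from 1437 to 2487 higher and from 915 to 1509 lower over the other settings, and a 4-fold limit gave 624 and 422. Leaving out chromosome 22, or genes under 20 estimated reads, were alternatives chosen after seeing the data, and the second gave 2009 and 1193. The share of higher genes that were 2-fold higher again with CDCA8siRNA was 88.0% with a pseudocount of 0.1, 87.8% from 5 RPKM and 84.5% after quantile normalization. For lower genes it was 82.6% after quantile normalization and 83.1% after upper quartile scaling. A limit of 5 in place of 10 RPKM gave 128 genes high in Huh7 and 77 in Huh1 that were under 0.1 RPKM in the other line. Of 174 list medians under alternatives, 167 moved by less than their interval, 7 by more and 0 passed to the opposite side as called values, and none of 401 named genes did so, though 267 of these moved by more than their interval in the CDCA8siRNA pair and 197 with a pseudocount of 0.1. Some list medians short of 2-fold did change sign. Under quantile normalization those of coagulation genes (0.28), ribosomal proteins (-0.19) and p53 targets (0.14) became -0.08, 0.04 and -0.08. From 5 RPKM those of coagulation genes and p53 targets were -0.32 and -0.14. The cause of these shifts was not tested. Low genes are limited by depth, and their differences depend on the pseudocount.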

Other observations

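A set of genes of glutathione synthesis, NADPH supply and quinone or aldehyde reduction, known as targets of the transcription factor NRF2, was put together after their values had been seen, so its count describes a choice and supports nothing. Of 35 measured, 30 were at least 2-fold lower in Huh7 and 1, PIR, was higher, with a median difference of -3.26, and 30 and 1 were so again with CDCA8siRNA. NQO1, a quinone reductase, was at 773 RPKM in Huh1 and 130 in Huh7. GCLM, the modifier subunit of glutathione synthesis, was at 330 and 30.9 RPKM, the cystine transporter SLC7A11 at 53 and 4.65, and the sulfiredoxin SRXN1 at 287 and 55.0. PGD, of the pentose phosphate pathway, was at 989 and 155 RPKM and TALDO1 at 535 and 104. NFE2L2, which encodes NRF2, was at 129 and 97.8 RPKM and its inhibitor KEAP1 at 55.1 and 29.3, both within 2-fold.

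The aldo-keto reductases were also gathered after their values were seen. Of 12, 9 were at least 2-fold lower in Huh7 and 1 higher, and their summed level was 12613 RPKM in Huh1 and 243 RPKM in Huh7. AKR1C3 was at 1054 and 9.95 RPKM, whereas AKR1A1 was at 43.0 and 36.4 and AKR1D1, a bile acid reductase, at 0.143 and 2.14. Reads within the AKR1C genes could be shared.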
